A study of Mus musculus with 22 samples.

Results

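The 9 chemokine receptor genes Ccr1, Ccr2, Ccr7, Ccr9, Cxcr2, Cxcr3, Cxcr4, Cxcr6 and Cx3cr1, taken as a named list out of 31053 genes in the count matrices, were followed through the leukocytes of mice without tumors. Leukocytes were droplet barcodes with at least 1 unique molecular identifier (UMI, a captured transcript) of Ptprc, the gene of the pan-leukocyte surface protein CD45, once barcodes with fewer than 200 genes or with more than 25% of UMIs from mitochondrial genes had been dropped. There were 1902 such barcodes in 10 libraries of circulating ZsGreen-positive cells (ntCZC), 37095 in 9 libraries of pooled solid organs (tissue) and 587 in 1 library of peripheral blood mononuclear cells (PBMC). All mice carried Prom1-CreERT2 and Rosa26ZSG, so that tamoxifen marked cells with an active Prom1 promoter and their descendants with ZsGreen, and none carried an oncogenic allele. The libraries labelled wt had no Nalcn deletion, and those labelled Nalcn-het or Nalcn-null carried 1 or both conditional alleles of this sodium leak channel gene. The ntCZC libraries (2 wt, 4 het and 4 null) and tissue libraries (5 wt, 2 het and 2 null) came from mice of 551 to 654 days, and the PBMC library from a wt male of 120 days. ntCZC had been sorted by flow cytometry from blood, whereas tissue was epididymis or uterus with kidney, liver, lung and stomach, dissociated with enzymes, tagged by organ and pooled. Blood against organ, the ZsGreen sort and the dissociation therefore ran together and cannot be told apart, and organs could not be separated here. A further 2 tissue libraries whose title and strain entry named different genotypes entered no comparison, and the labels named no animals, so p-values measured the spread between libraries.

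Chemokine receptors are G-protein-coupled receptors in the membrane of leukocytes. Chemokines held on endothelium or released in tissue activate them through inhibitory G proteins, which arrests rolling cells on the vessel wall and steers crawling cells along a gradient, and receptor kinases and arrestins then switch the receptor off and take it into the cell. Inflammatory receptors such as Ccr1, Ccr2 and Cxcr2 bring myeloid cells to injured tissue, homing receptors such as Ccr7 and Ccr9 guide lymphocytes and dendritic cells to lymphoid organs and gut, and Cxcr4 holds many leukocytes in the bone marrow.

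Leukocyte classes were gated on marker genes that included none of the 9 receptors, a barcode entering a class when at least 3 of its markers were detected. Where several classes reached 3 markers, the first had to lead the next by 2. Barcodes with 3 T cell markers were not taken as NK cells. In tissue the gates found 5147 alveolar macrophages, 4749 B cells, 3827 C1q macrophages, 3711 T cells, 3488 neutrophils, 1113 classical and 677 nonclassical monocytes, 502 type 1 and 279 type 2 dendritic cells, 421 plasma cells, 380 NK cells, 114 plasmacytoid dendritic cells, 101 mature dendritic cells and 61 basophils or mast cells. In ntCZC they found 897 nonclassical monocytes, 195 B cells, 185 classical monocytes, 133 C1q macrophages, 125 T cells and 109 neutrophils, of which 99 came from wt replicate 1. No gate was met by 24.2% of tissue barcodes. Another 9.57% met several without that lead, or met the NK gate with 2 T cell markers, and were left out. Libraries held 18626 to 72288339 UMIs in leukocytes, and ntCZC wt replicate 3 had only 7 leukocyte barcodes. No pair of libraries shared more than 2.60% of the barcodes of the smaller one. The library labelled tissue null replicate 3, female, held Xist at 1497 CPM together with Y-linked transcripts at 26.5 CPM, unlike the other libraries, and leaving it out ended none of the calls given for the receptors.

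In the mouse genome (GRCm38, GENCODE vM21), 5 of the 9 genes lie on chromosome 9. Ccr9 (123678439 to 123784330, plus strand), Cxcr6 (123806475 to 123811760, plus), Ccr1 (123962124 to 123968692, minus) and Ccr2 (124101950 to 124113557, plus) share a stretch of 435.1 kb, and Cx3cr1 (119901616 to 120069879, minus) lies outside it. Cxcr2 (74153989 to 74161246, plus) and Cxcr4 (128588199 to 128592293, minus) are on chromosome 1, Ccr7 (99144196 to 99155077, minus) on chromosome 11 and Cxcr3 (101731535 to 101734269, minus) on chromosome X. The models of Ccr9 and Cx3cr1 overlap other genes on the same strand and that of Cxcr6 overlaps Fyco1 on the opposite strand, and how reads in shared stretches were assigned was not given in the sources used here. The promoters of Ccr9 and Cxcr2, which were each concentrated in 1 or a few classes, and of Cxcr4, which was found in every class, are shown to set a narrow beside a broad receptor. Each runs from 250 bases before to 50 after the annotated start (RefSeq, GRCm38.p6), read 5′ to 3′ on the strand of the gene, with matches on either strand in capitals to AGGAAG in Ccr9 and Cxcr2 and to GGGCGG and TATAAA in Cxcr4.
Ccr9 (chr9:123766961-123767260, plus): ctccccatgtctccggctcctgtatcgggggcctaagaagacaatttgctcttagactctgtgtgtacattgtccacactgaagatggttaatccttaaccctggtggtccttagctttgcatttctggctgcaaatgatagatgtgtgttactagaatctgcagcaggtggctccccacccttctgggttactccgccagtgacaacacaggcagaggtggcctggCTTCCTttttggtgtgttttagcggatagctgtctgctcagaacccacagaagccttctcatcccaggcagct
Cxcr2 (chr1:74153744-74154043, plus): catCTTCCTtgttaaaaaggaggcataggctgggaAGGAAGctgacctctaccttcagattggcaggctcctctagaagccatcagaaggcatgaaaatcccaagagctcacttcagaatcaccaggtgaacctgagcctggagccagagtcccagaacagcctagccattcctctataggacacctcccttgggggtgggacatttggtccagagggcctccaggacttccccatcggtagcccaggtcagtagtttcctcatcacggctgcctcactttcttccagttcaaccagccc
Cxcr4 (chr1:128592250-128592549, minus): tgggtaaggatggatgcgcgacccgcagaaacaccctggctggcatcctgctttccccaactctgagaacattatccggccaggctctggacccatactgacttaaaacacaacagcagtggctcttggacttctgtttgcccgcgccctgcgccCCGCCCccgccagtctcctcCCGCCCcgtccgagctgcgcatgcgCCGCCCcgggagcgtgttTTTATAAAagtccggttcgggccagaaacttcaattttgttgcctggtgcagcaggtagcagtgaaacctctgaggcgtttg
Of the 8 receptors with an entry (Ccr7 had none), Cxcr4 alone held GGGCGG, the letters of a GC box, 3 times, and TATAAA, with 2 matches that overlap each other. AGGAAG was found in Ccr9, Cxcr2 and Cxcr3 and in none of the others, Ccr1 and Cxcr6 included. Over 32851 promoters of this length, 35.66% held GGGCGG, 13.62% TATAAA and 35.35% AGGAAG, the core of an ETS site. A match is a run of letters and not a measured site.

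Levels were counts per 1000000 UMIs (CPM), from the UMIs of a class summed per library, and compare 1 gene between classes, not genes with each other. In such sums, fewer positive cells and less RNA per cell cannot be told apart, so the percentage of barcodes with a UMI, after each was thinned to 1000 UMIs, is given as well. As a background, tissue barcodes without a Ptprc UMI and with endothelial, epithelial or stromal markers held Cxcr4 in 3.81%, 2.09% and 3.62%, and the other 8 receptors in at most 1.47%. Free RNA and RNA made by the cells of these barcodes could not be told apart in it.

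**Figure D1:**
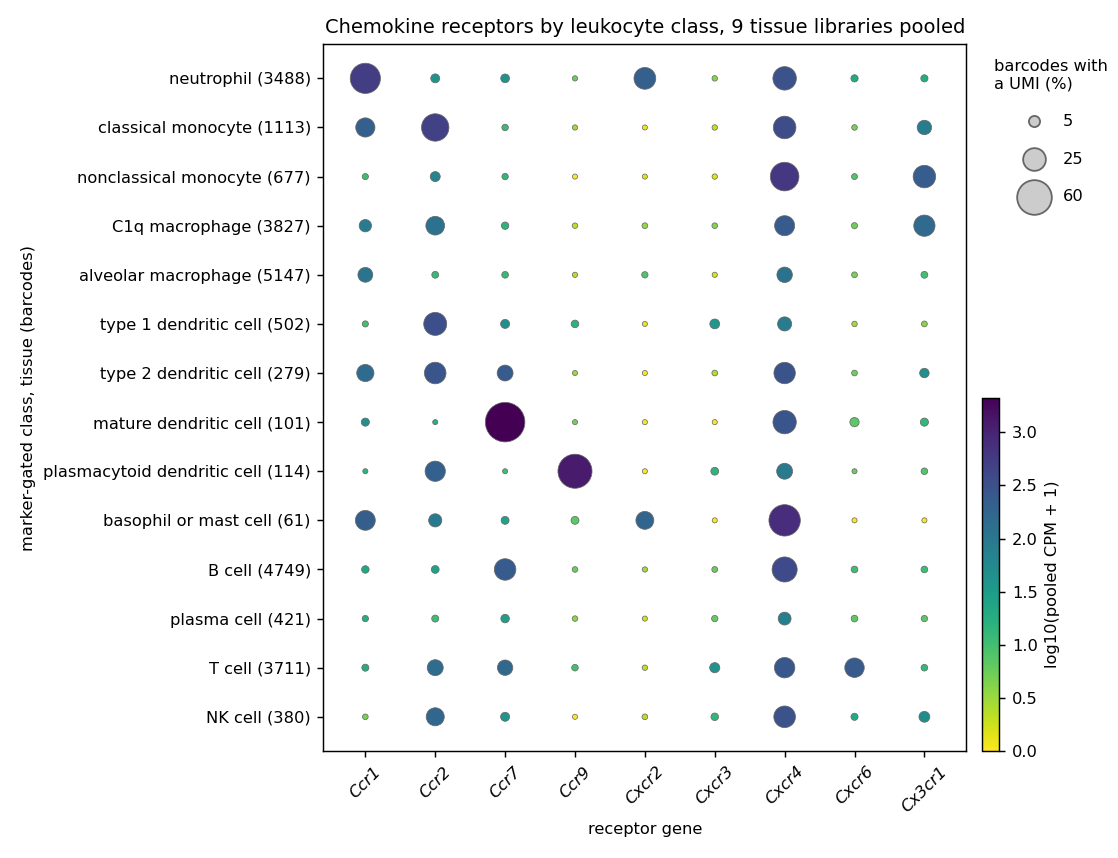
Receptor genes (columns) by marker-gated class (rows, with barcodes) in 9 tissue libraries pooled. Color is log10(CPM + 1) of the summed counts and dot area the percentage of barcodes with a UMI after thinning to 1000 UMIs. Ccr9 stands out in plasmacytoid dendritic cells (1210 CPM) and Ccr7 in mature dendritic cells (2114 CPM), while the Cxcr4 column is filled in every class.

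Ccr1, a receptor for Ccl3 and Ccl5, was a transcript of neutrophils, where it stood at 712 ± 423 CPM (SD, n = 8) and in 45.3% of barcodes. Library values ran from 205 through a median of 579 to 1403 CPM. Among classes with at least 20 barcodes, classical monocytes followed at 179 ± 48.5 CPM (SD, n = 8), and with at least 5, basophils or mast cells at 234 ± 134 CPM (SD, n = 7). Neutrophils were above classical monocytes in 8 of 8 tissue libraries (exact two-sided sign-flip permutation p = 0.00781, the smallest that 8 libraries allow). The adjusted p over 81 pairs of neighboring classes was 0.0904, and 0 of the 81 pairs passed, with 15 at an unadjusted p under 0.05. For every receptor, neighbors were set by the order of mean levels in the same libraries. The p-values of such pairs describe that order and are no independent test of it. Nonclassical monocytes, at 9.63 CPM over all libraries and 0.61% of barcodes, were within the background.

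Ccr2, the receptor for Ccl2 that lets monocytes leave the marrow, was highest in classical monocytes, at 530 ± 176 CPM (SD, n = 8) and in 37.1% of barcodes. Type 1 dendritic cells followed with 344 ± 122 CPM (SD, n = 8), below classical monocytes in 8 of 8 libraries (exact p = 0.00781, adjusted p = 0.0904). They could not be separated from type 2 dendritic cells at 295 ± 112 CPM (SD, n = 6, exact p = 0.438). C1q macrophages held 197 ± 116 CPM (SD, n = 9) and NK cells 182 ± 47.6 CPM (SD, n = 7). Plasmacytoid dendritic cells held 206 CPM pooled, and nonclassical monocytes 57.4 ± 18.8 CPM (SD, n = 7). Among T cells, those with gamma delta receptor transcripts held Ccr2 at 397 ± 160 CPM (SD, n = 7 libraries with at least 5 such barcodes), against 87.2 CPM in CD4 and 60.6 CPM in CD8 T cells pooled.

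Cxcr2, the neutrophil receptor for Cxcl1 and Cxcl2, was highest in tissue neutrophils. They held 263 ± 129 CPM (SD, n = 8) and 69.8% of all Cxcr2 UMIs of tissue leukocytes, while making up 9.40% of the barcodes. Alveolar macrophages, the next class with at least 20 barcodes, held 7.62 ± 2.99 CPM (SD, n = 8), below neutrophils in 8 of 8 libraries (exact p = 0.00781, adjusted p = 0.0904). Basophils or mast cells held 176 CPM pooled over 61 barcodes and, in libraries with at least 5 of them, 156 ± 154 CPM (SD, n = 7), above alveolar macrophages in 5 of 7 libraries (exact p = 0.125).

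Cx3cr1, the receptor for the membrane-bound chemokine Cx3cl1, was shared by C1q macrophages at 281 ± 157 CPM (SD, n = 9) and nonclassical monocytes at 266 ± 70.9 CPM (SD, n = 7). These 2 classes did not differ beyond their spread (exact p = 0.969). Nonclassical were above classical monocytes, at 134 ± 55.6 CPM (SD, n = 8), in 7 of 7 libraries (exact p = 0.0156, the smallest for 7, adjusted p = 0.0904). Alveolar macrophages, at 8.98 CPM pooled, were in contrast to C1q macrophages low in Cx3cr1 and in Ccr2 (11.1 against 119 CPM pooled), although both are macrophages. As means over libraries, Ccr2 was 13.2 ± 4.96 CPM (SD, n = 8) in alveolar and 197 ± 116 CPM (SD, n = 9) in C1q macrophages.

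Ccr7 takes dendritic cells and lymphocytes to lymph nodes along Ccl19 and Ccl21. It reached 2454 ± 717 CPM (SD, n = 7) in mature dendritic cells, in libraries with at least 5 of them, a limit set after the data had been seen. Library values ran from 1570 through a median of 2669 to 3235 CPM, and 78.6% of these barcodes held a UMI. B cells came next at 305 ± 129 CPM (SD, n = 9) under this limit, and the mature dendritic cells were above them in 7 of 7 libraries (exact p = 0.0156, adjusted p = 0.166 over 117 pairs, of which 0 passed and 18 had an unadjusted p under 0.05). With at least 20 barcodes, B cells (313 ± 136 CPM, SD, n = 8), type 2 dendritic cells (248 ± 153 CPM, SD, n = 6) and T cells (165 ± 46.8 CPM, SD, n = 8) could not be ordered, with exact p of 0.219 and 0.375 between neighbors.

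Ccr9, the receptor for the gut and thymus chemokine Ccl25, belonged in tissue to plasmacytoid dendritic cells. In libraries with at least 5 of them it stood at 1080 ± 378 CPM (SD, n = 7), from 495 through a median of 987 to 1609 CPM, and in 58.0% of barcodes. They were 0.307% of tissue leukocytes and held 36.3% of the Ccr9 UMIs. The next class, type 1 dendritic cells at 12.7 ± 9.55 CPM (SD, n = 8), was lower in 7 of 7 libraries (exact p = 0.0156, adjusted p = 0.166). No other tissue class exceeded 14.5 CPM pooled. In PBMC, Ccr9 was at 85.7 CPM in CD8 T cells (95% exact Poisson interval 49.0 to 139, which like all such intervals covers counting error only), against 7.48 CPM pooled in CD8 T cells of tissue.

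Cxcr3 and Cxcr6 mark activated and tissue-resident T cells, which follow Cxcl9 and Cxcl10, and Cxcl16, respectively. Cxcr3 was sparse everywhere, with its highest tissue levels in T cells (48.2 ± 26.8 CPM, SD, n = 8) and type 1 dendritic cells (28.3 ± 14.9 CPM, SD, n = 8), which did not differ beyond their spread (exact p = 0.0938). Cxcr6 stood at 226 ± 117 CPM (SD, n = 8) in T cells and at 26.6 ± 39.9 CPM (SD, n = 7) in NK cells, which were lower in 7 of 7 libraries (exact p = 0.0156, adjusted p = 0.0904). In libraries with at least 5 barcodes of each, gamma delta T cells held Cxcr6 at 721 ± 346 CPM (SD, n = 7), CD8 T cells at 145 ± 81.1 CPM (SD, n = 9) and regulatory T cells at 54.0 ± 54.6 CPM (SD, n = 6). Among the gated T cell subsets, Cxcr6 and Ccr2 were thus both highest in the gamma delta group, in 49.0% and 41.4% of its barcodes. That group held at least 2 UMIs of Trdc, Tcrg-C1 or Tcrg-C2 and none of Trac. Of 3711 tissue T cells, 837 were gated as CD8, 484 as CD4, 296 as gamma delta and 138 as regulatory, and the rest entered no subset.

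Cxcr4, the receptor for the stromal chemokine Cxcl12, was the broad member. Nonclassical monocytes led with 479 ± 268 CPM (SD, n = 7), followed by B cells (423 ± 236 CPM, SD, n = 8) and neutrophils (325 ± 100.3 CPM, SD, n = 8), and these neighbors could not be ordered (exact p of 0.406 and 0.430). The lower end was clearer, with C1q macrophages at 208 ± 40.4 CPM (SD, n = 9) above alveolar macrophages at 119 ± 22.1 CPM (SD, n = 8) in 8 of 8 libraries (exact p = 0.00781, adjusted p = 0.0904). Plasma cells (81.5 CPM), type 1 dendritic cells (89.1 CPM) and plasmacytoid dendritic cells (91.1 CPM) were low when pooled, with an order that turned in the means over libraries, and 7.14% of plasma cells held a UMI. Basophils or mast cells had the highest pooled level, 791 CPM (95% exact Poisson interval 661 to 939), from 61 barcodes.

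The genes most like each receptor over 13 tissue classes, by Pearson correlation of mean log2(CPM + 1) among 5040 genes outside the gate lists, were Cd14, Hilpda and Slc25a33 for Ccr1 (r = 0.91, 0.91 and 0.89), Dpy19l1 for Ccr2 (0.84), Birc2 and Csrp1 for Ccr7 (both 0.86), Ap1ar for Ccr9 (0.96), Gm5483 and Mrgpra2b for Cxcr2 (0.95 and 0.94), Ttc3 for Cxcr3 (0.83), Bcl11b, Lat and Themis for Cxcr6 (0.92, 0.92 and 0.89) and Ehd4 and Itgam for Cx3cr1 (0.87 and 0.85). For Cxcr4 they were Nfat5 (0.92), Eng (0.91) and Tek (0.87), the last 2 being known from endothelium. Classes shared libraries and depth, and these values are descriptions.

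The question of the next comparison was whether receptors on the leukocyte barcodes of the ntCZC libraries stood at the level of leukocytes in organs. The paper describes ntCZC as cells shed from epithelia and reports no recombination of blood-forming marrow cells by Prom1-CreERT2. ZsGreen was not measured in single barcodes here. Whether these leukocytes carried it or passed the sort without it was not tested. Over all leukocytes of a library, Cx3cr1 ran from 0 through 156 to 280 CPM in ntCZC and from 30.4 through 56.1 to 149 CPM in tissue. The ranges overlapped, and the ntCZC library at 0 was wt replicate 3 with its 7 barcodes. Cx3cr1 was 145 ± 99.0 CPM in ntCZC (SD, n = 10) and 66.1 ± 36.4 CPM in tissue (SD, n = 9), a log2 difference of 1.21 (SE 0.43, adjusted p = 0.0226, edgeR quasi-likelihood test with Benjamini-Hochberg adjustment, as for every adjusted p of CPM differences here). Ccr2 ran from 0 through 167 to 566 CPM in ntCZC and from 64.2 through 89.8 to 193 CPM in tissue. Its means were 217 ± 188 (SD, n = 10) and 107 ± 40.8 CPM (SD, n = 9), with a log2 difference of 1.01 (SE 0.38, adjusted p = 0.0315). Of 8 receptors tested (Ccr9 was too low), these 2 were higher in ntCZC and 0 lower, where 23.5% of all genes tested were higher and 30.3% lower, so that the share of receptors called higher was near that of all genes. Ccr1 (log2 difference -0.84, adjusted p = 0.0628), Ccr7 (-0.83, 0.0674) and Cxcr4 (-0.58, 0.0780) did not pass, but these 3 were lower in ntCZC under RLE scaling (adjusted p 0.0365, 0.0379 and 0.0279) and without barcodes that held non-leukocyte markers, where Ccr1 was at -1.08 (0.0346), Ccr7 at -1.25 (0.00944) and Cxcr4 at -0.99 (0.00568). Of all genes tested, 55.3% were called in either direction under RLE scaling and 48.0% without barcodes with non-leukocyte markers. The Cx3cr1 call was lost without ntCZC null replicate 4 (adjusted p = 0.0562) and without the barcodes with those markers (0.115). The Ccr2 call was lost under the same marker condition (0.248), with DESeq2 (0.0535), with RLE scaling (0.0548), without the 10% of barcodes with the most UMIs (0.300), and when 1 of 7 libraries was left out, namely ntCZC wt replicate 1, null replicate 2 or null replicate 3, or tissue wt replicate 2, wt replicate 3, het replicate 1 or null replicate 2 (adjusted p 0.0507 to 0.0713).

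**Figure D2:**
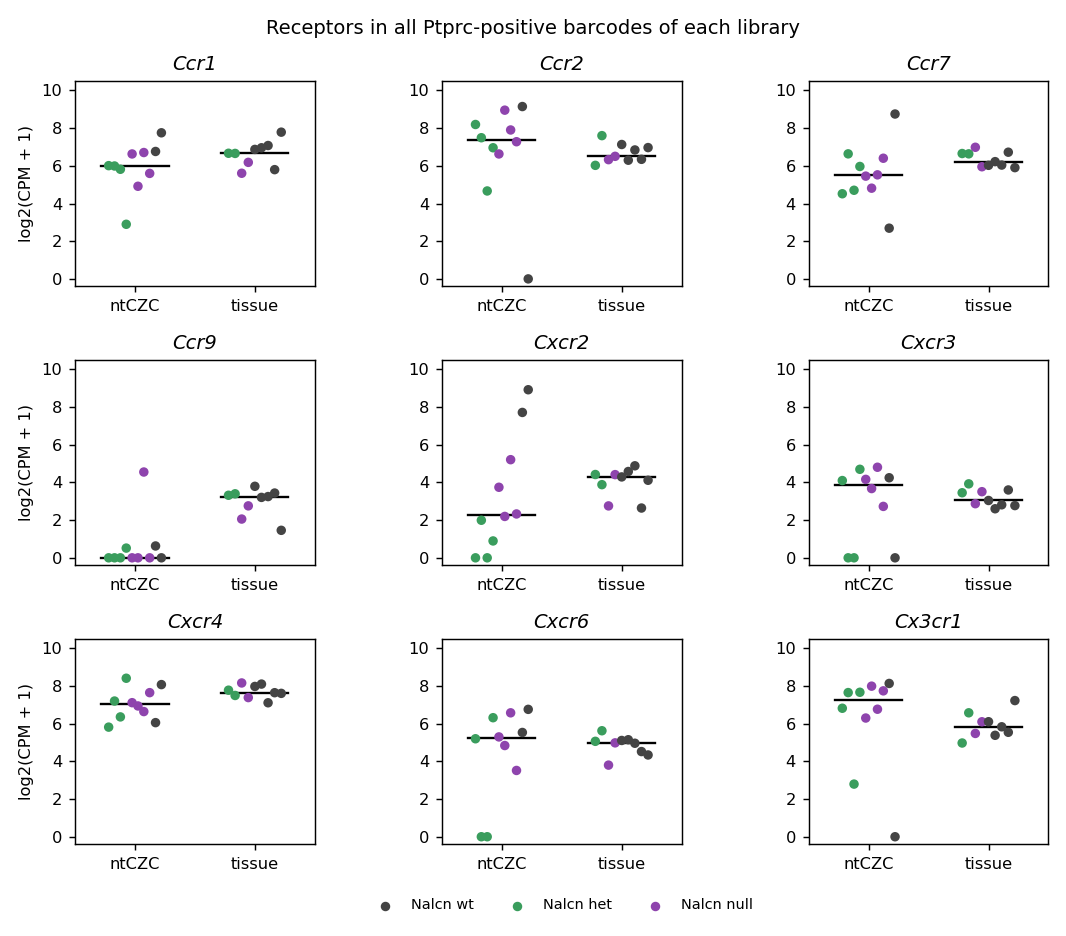
Receptor levels over all Ptprc-positive barcodes per library (y axis, log2(CPM + 1)) in ntCZC and tissue, colored by Nalcn genotype, with black lines at the medians. Groups overlap for each receptor, and Cx3cr1 and Ccr2 were higher in ntCZC by the test.

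The cell classes differed at the same time. Nonclassical monocytes, which carry Cx3cr1, made up 35.1 ± 21.03% (SD, n = 10) of leukocytes per ntCZC library and 1.99 ± 1.83% (SD, n = 9) in tissue, and classical monocytes, which carry Ccr2, 6.22 ± 7.34% and 3.10 ± 1.25%. Their part in the 2 differences was not tested by a model, and the values within classes are given next. By the percentage of thinned barcodes with a UMI, Cx3cr1 was at 14.2 ± 7.97% in ntCZC (n = 10) and 6.28 ± 2.77% in tissue (n = 9; exact two-sided permutation p = 0.0140, adjusted p = 0.0631 over 9 receptors). Ccr9 was in 0.0202 ± 0.0638% of ntCZC barcodes (n = 10) and in 0.638 ± 0.232% of tissue barcodes (n = 9; permutation p = 2.17e-05 over 92378 splits, adjusted p = 0.000195). Only 7 Ccr9 UMIs were found in ntCZC, 5 of them in null replicate 3, and 0 of 1902 ntCZC barcodes met the plasmacytoid gate, which allows a share of up to 0.158%. This limit covers counting error in the pooled barcodes only, not the spread between libraries. The Ccr9 call was lost at 500 UMIs (adjusted p = 0.997) and without thinning (adjusted p = 0.142). For the other 7 receptors the adjusted p was 0.842 to 0.963.

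Within classes, Cxcr4 was the receptor that differed in most. It was lower in ntCZC than in tissue in 5 of 5 classes that could be tested. With at least 20 barcodes per class and library, classical and nonclassical monocytes could be compared, and with at least 10, a limit chosen after the data had been seen, B cells, C1q macrophages and T cells as well.

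In classical monocytes of 3 ntCZC libraries Cxcr4 was at 24.02 CPM in wt replicate 1, 31.4 CPM in null replicate 2 and 128 CPM in het replicate 4, and in the 8 tissue libraries it ran from 126 through 274 to 462 CPM. The lowest tissue library and the highest ntCZC library touched, and the other ntCZC libraries were below all of tissue. The means were 61.1 ± 57.9 (SD, n = 3) and 280 ± 113 CPM (SD, n = 8), a log2 difference of -2.62 (SE 0.51, adjusted p = 0.00124). Ccr1 differed to a like extent in these cells, at 38.7 ± 6.16 CPM in ntCZC (SD, n = 3) and 179 ± 48.5 CPM in tissue (SD, n = 8), with no overlap and a log2 difference of -2.44 (SE 0.28, adjusted p = 2.20e-05). Of the 4 receptors tested in classical monocytes 2 were lower, and of all genes tested in them 17.8%. Ccr2 went the other way, with 602 CPM in ntCZC het replicate 4, 913 in null replicate 4, 1110 in null replicate 2 and 1137 in wt replicate 1, against 342 through 492 to 858 CPM in tissue. With these 4 libraries the log2 difference was 0.63 (SE 0.23, adjusted p = 0.0467, where 12.9% of all genes were higher), and with the 3 libraries of at least 20 barcodes it was 0.65 (adjusted p = 0.0935). The call was lost without any 1 of ntCZC wt replicate 1, null replicate 2 or null replicate 4 or tissue wt replicate 2 or null replicate 2 (adjusted p 0.0551 to 0.162). Under 5 alternative settings that kept every library, it held in 2 (adjusted p 0.0366 to 0.151). Cx3cr1 in classical monocytes was 185 ± 66.6 (SD, n = 3) and 134 ± 55.6 CPM (SD, n = 8; adjusted p = 0.248).

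**Figure D3:**
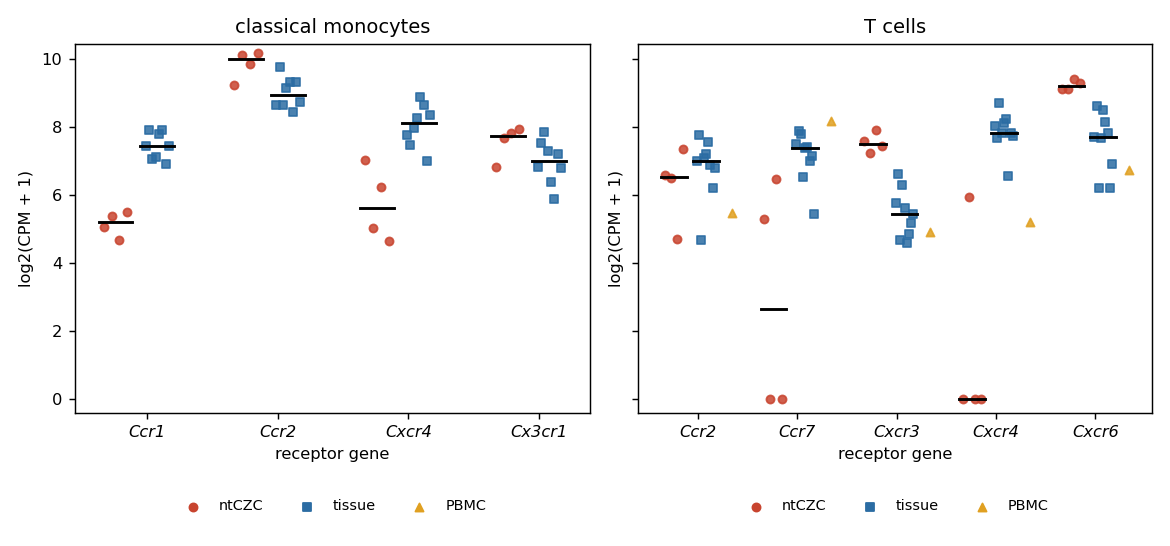
Receptor levels per library (y axis, log2(CPM + 1)) in classical monocytes and T cells, in libraries with at least 10 barcodes of the class, black lines marking medians of groups of 3 or more. Ccr1 in classical monocytes and Cxcr3, Cxcr4 and Cxcr6 in T cells show no overlap between ntCZC and tissue, and 3 of 4 ntCZC libraries have no Cxcr4 UMI in T cells.

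In nonclassical monocytes Cxcr4 ran from 95.8 through 214 to 465 CPM in 7 ntCZC libraries and from 202 through 386 to 959 CPM in 7 tissue libraries. The groups overlapped over much of their range. The means were 251 ± 121 and 479 ± 268 CPM (SD, n = 7 each), with a log2 difference of -1.19 (SE 0.32, adjusted p = 0.00647), and it was the 1 receptor of 3 tested that was lower, as were 17.4% of all genes. Cx3cr1, which these patrolling cells use to survey the vessel wall, was 363 ± 67.9 and 266 ± 70.9 CPM (SD, n = 7 each; adjusted p = 0.207), and Ccr2 107 ± 78.2 and 57.4 ± 18.8 CPM (adjusted p = 0.187). The Cx3cr1 difference over all leukocytes was thus larger (log2 1.21) than within the class that held 71.6% of its ntCZC UMIs (log2 0.29), a contrast that was not tested.

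Endothelial markers moved with the Cxcr4 difference. The summed level of 4 endothelial genes in nonclassical monocytes was 77.5 to 1102 CPM in tissue, with all 4 detected, and 0 to 7.16 CPM in ntCZC, with 1 detected. In classical monocytes it was 27.4 to 588 CPM in tissue and 0 to 1.74 CPM in ntCZC. Tissue barcodes with endothelial markers and no Ptprc UMI held Cxcr4 at 43.7 CPM pooled. The tissue leukocyte classes held 81.5 to 791 CPM pooled, while 2 of 3 ntCZC classical monocyte libraries were below 43.7 CPM. Barcodes that held 2 or more UMIs of endothelial, epithelial or stromal markers were also left out. The Cxcr4 log2 differences were then -1.41 in nonclassical (adjusted p = 0.00109) and -2.73 in classical monocytes (adjusted p = 0.000986). That filter does not remove free RNA from the barcodes it keeps. The part of endothelial or free RNA in the Cxcr4 difference was not tested. A list of 14 immediate early and heat shock genes, which respond to handling and was drawn up after the data had been seen, held 7 genes lower and 1 higher in ntCZC nonclassical monocytes (median log2 difference -0.67) and 6 lower and 1 higher in classical monocytes (-0.76), where the median of all genes was 0.03 and -0.02 and 17.4% and 17.8% of all genes were lower. Over all leukocytes 5 of the 14 were lower and 3 higher (median -0.26), beside 30.3% and 23.5% of all genes. Its part in the Cxcr4 difference was not tested.

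**Figure D4:**
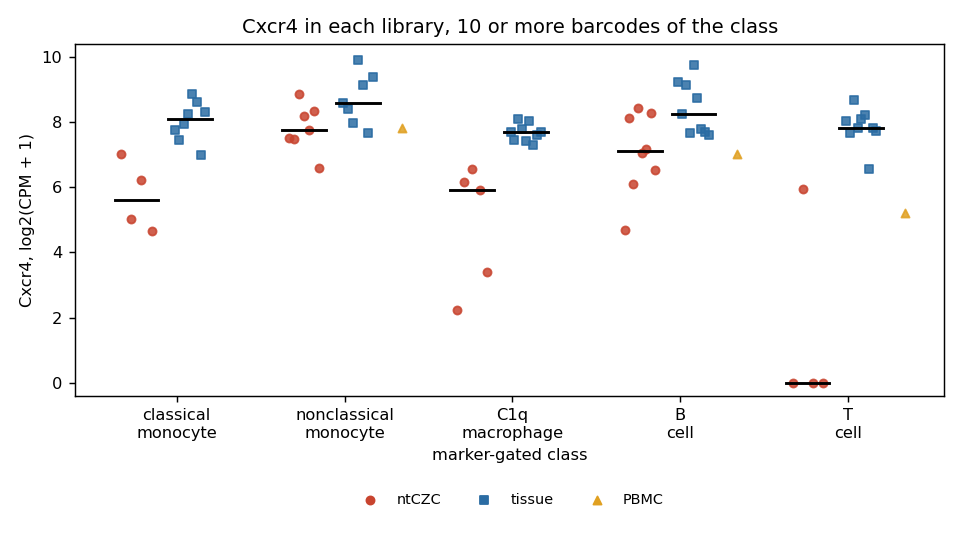
Cxcr4 per library (y axis, log2(CPM + 1)) in the 5 leukocyte classes with at least 10 barcodes in 3 or more ntCZC libraries, black lines marking medians. The ntCZC values lie below the tissue values without overlap in T cells and C1q macrophages and overlap them in B cells and in both monocyte classes.

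In C1q macrophages Cxcr4 was at 3.74, 9.53, 59.3, 70.6 and 92.8 CPM in 5 ntCZC libraries, and in 9 tissue libraries it ran from 157 through 208 to 275 CPM. The groups did not overlap, and the log2 difference was -2.19 (SE 0.47, adjusted p = 0.00225). Cx3cr1 was lower too, at 4.53, 15.0, 21.2, 30.9 and 41.3 CPM in ntCZC against 79.8 through 249 to 566 CPM in tissue (log2 difference -3.81, SE 0.52, adjusted p = 6.13e-05), again without overlap. These were 2 of 4 receptors tested, beside 15.8% of all genes lower. Ccr1 (149 ± 22.7 CPM, SD, n = 5, and 79.5 ± 84.6 CPM, SD, n = 9; adjusted p = 0.187) and Ccr2 (adjusted p = 0.868) did not pass, and Ccr1 was higher in ntCZC once tissue wt replicate 5 was left out (log2 1.64, adjusted p = 0.000709). The class did not hold like macrophages in both kinds of library, as its leading genes beside the C1q genes included Retnla, Prg4, Cxcl13 and Alox15 in ntCZC and Ms4a7, Ccl8, Pf4, Mmp12 and Trem2 in tissue, with Saa3 in both. The ntCZC barcodes held a median of 13755 UMIs, against 3799 in tissue, and 5 classical monocyte markers summed to 2496 to 6943 CPM in ntCZC and 178 to 2927 CPM in tissue. Their part in the receptor differences was not tested.

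T cells showed the most receptors changed. Cxcr6 was at 547, 548, 618 and 670 CPM in the ntCZC libraries het replicate 1, het replicate 4, wt replicate 1 and null replicate 2, and ran from 72.3 through 207 to 387 CPM in 9 tissue libraries. Cxcr3 was at 189, 149, 171 and 236 CPM in the same ntCZC libraries and from 23.0 through 42.0 to 96.7 CPM in tissue. Both were higher in ntCZC without overlap, with log2 differences of 1.06 (SE 0.34, adjusted p = 0.0240) and 1.87 (SE 0.38, adjusted p = 0.00156).

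Cxcr4 had 0 UMIs in T cells of 3 of the 4 ntCZC libraries, where 3 counts would be 24.4, 37.2 and 56.6 CPM, and 60.2 CPM in het replicate 4. In tissue it ran from 93.6 through 225 to 412 CPM. Ccr7 was at 0, 0, 37.7 and 86.9 CPM in ntCZC and from 42.0 through 166 to 231 CPM in tissue. The log2 differences were -3.29 (SE 0.59, adjusted p = 0.000736) and -3.35 (SE 0.66, adjusted p = 0.00138), and the first was -10.85 without het replicate 4, a value that depends on the prior count since no UMI was left. Of 5 receptors tested 2 were thus higher and 2 lower, beside 11.8% and 18.5% of all genes, and Ccr2 did not pass (adjusted p = 0.205).

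The Cxcr6 call in T cells was lost without ntCZC het replicate 4 (adjusted p = 0.0653), without null replicate 2 (0.0627) and without barcodes with non-leukocyte markers (0.0850). The ntCZC T cells also held 8 NK cell markers at a summed 447 to 3676 CPM, above the 137 to 354 CPM of tissue, with all 8 detected in both, and the part of this in the receptor differences was not tested. The PBMC library stood apart from ntCZC, its 230 T cells holding Cxcr6 at 104 CPM, Cxcr3 at 29.1 CPM and Ccr7 at 288 CPM, and was near it in Cxcr4 at 36.0 CPM. With 1 PBMC library no test was made.

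In B cells Cxcr4 ran from 24.7 through 137 to 345 CPM in 8 ntCZC libraries and from 194 through 305 to 856 CPM in 9 tissue libraries. The log2 difference was -1.12 (SE 0.40, adjusted p = 0.0283), beside 23.1% of all genes lower. It was lost without any 1 of ntCZC wt replicate 1, het replicate 1, null replicate 2 or het replicate 3 (adjusted p 0.0571 to 0.0699) and with at least 2 Ptprc UMIs per barcode (0.0776). Ccr7, by which B cells enter lymph nodes, was 475 ± 334 CPM (SD, n = 8) and 305 ± 129 CPM (SD, n = 9; adjusted p = 0.285). Leaving out each library in turn, the Cxcr4 log2 difference stayed between -2.54 and -1.79 in C1q macrophages, -3.46 and -2.14 in classical monocytes and -1.58 and -0.95 in nonclassical monocytes, with an adjusted p of at most 0.0250 in these 3 classes.

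Neutrophils could not be tested, since 99 of the 109 in ntCZC came from 1 library. Cxcr2 was at 2044 CPM in ntCZC neutrophils (95% exact Poisson interval 1845 to 2259) and 1797 CPM in the 34 neutrophils of PBMC (1358 to 2334), whereas the 8 tissue libraries ran from 70.9 through 247 to 438 CPM. Both blood values were above every tissue library. After thinning, 84.2% of ntCZC neutrophils held a Cxcr2 UMI (85 of 101, exact Clopper-Pearson interval 75.6 to 90.7%) and 22.9% of tissue neutrophils (705 of 3080). That interval covers counting error only, as most of the ntCZC neutrophils came from 1 library.

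Ccr1 did not set blood apart in this way. It was at 985 CPM in ntCZC (849 to 1137) and 931 CPM in PBMC (623 to 1337), inside the tissue range of 205 to 1403 CPM. Cxcr4 was at 201 CPM in ntCZC (142 to 276), 610 CPM in PBMC (367 to 952) and 219 through 315 to 525 CPM in tissue. These Cxcr4 values lay below (ntCZC, pooled over libraries) and above (PBMC) the tissue libraries, but both counting intervals ran into the tissue range. In ntCZC wt replicate 1 alone, with 99 neutrophils, Cxcr4 was at 140 CPM from 23 UMIs, also below every tissue library.

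**Figure D5:**
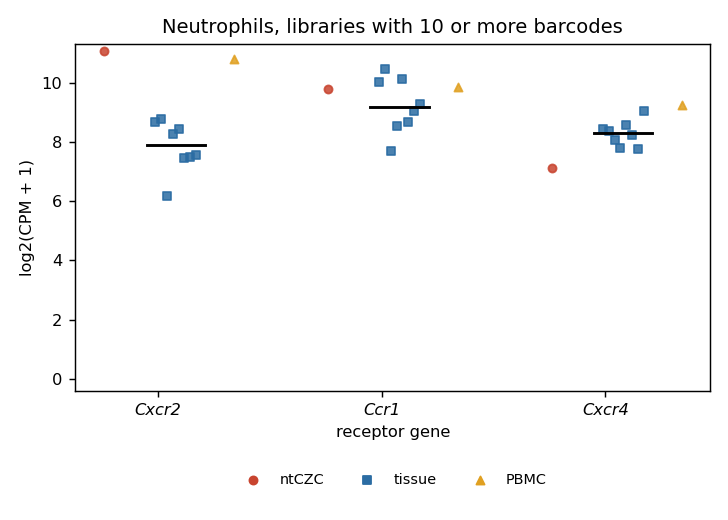
Ccr1, Cxcr2 and Cxcr4 in neutrophils per library with at least 10 such barcodes (y axis, log2(CPM + 1)), 1 ntCZC, 8 tissue and 1 PBMC library, black lines marking tissue medians. Cxcr2 in ntCZC (2147 CPM in this library) and PBMC (1797 CPM) lies above all tissue libraries.

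Nalcn genotype was compared next, the question being whether receptors on leukocytes differed between mice of different genotype. In ntCZC the tests of null against wt, het against wt and null against het called 0.0%, 0.16% and 0.0% of 8736 genes (edgeR, 361 and 695 genes at an unadjusted p under 0.05 in the first and last). The 1 receptor called was Cxcr2 in het against wt. It was at 209 CPM in wt replicate 1 and 483 CPM in wt replicate 3, and at 0, 0, 0.86 and 2.98 CPM in het, without overlap (log2 difference -8.60, SE 0.86, adjusted p = 0.00282). Neutrophils made up 20.5% of leukocytes in wt replicate 1 and 28.6% of the 7 barcodes in wt replicate 3, and a median of 0.33% over ntCZC libraries. In null libraries Cxcr2 ran from 3.58 to 36.0 CPM (adjusted p against wt 0.389).

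In tissue the same tests called 0.0% of 14726 genes for null against wt and 0.0% for het against wt (edgeR, 1066 and 587 genes at an unadjusted p under 0.05), and 0 of the 9 receptors. Within 7 tissue classes, 0.0379% of 108210 gene tests were called and 0 receptors. The lowest receptor p was that of Ccr1 in alveolar macrophages, with 67.9 and 90.7 CPM in null, 141 and 167 CPM in het and 88.3 through 104 to 156 CPM in 4 wt libraries. Unadjusted p was 0.00388 for null and 0.0101 for het against wt, and neither passed the adjustment (adjusted p = 1.00 and 0.895). Cxcr3 in T cells was 53.1 and 96.7 CPM in het and 23.0 through 31.4 to 47.8 CPM in wt (unadjusted p = 0.0106, adjusted p = 0.635). With 2 null libraries a change was not detectable unless large, since on simulated counts of 14503 genes the null against wt test over all tissue leukocytes recovered 9% of 2-fold and 69% of 4-fold changes. Tissue leukocytes were not sorted on ZsGreen, and the paper states that Prom1-CreERT2 does not recombine blood-forming cells of the marrow. How many leukocytes of the het and null tissue libraries carried the deletion was not tested.

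Other chemokine receptors that were lower in ntCZC over all leukocytes included Xcr1 and Ccr6, in a test that called 30.3% of all genes lower. Xcr1, the receptor of type 1 dendritic cells, was 0.204 ± 0.512 CPM in ntCZC (SD, n = 10) and 14.2 ± 5.46 CPM in tissue (SD, n = 9; adjusted p = 1.98e-08), with 3 type 1 dendritic cells among ntCZC barcodes. Ccr6, a receptor of B cells and some T cells, was 4.41 ± 6.12 CPM in ntCZC (SD, n = 10) and 6.38 ± 4.56 CPM in tissue (SD, n = 9; adjusted p = 0.0406), with overlapping groups.

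Of 20 genes that carry or end the receptor signal, 13 were higher and 2 lower in ntCZC over all leukocytes, beside 23.5% and 30.3% of all genes. Grk3, a kinase that switches receptors off, was 148 ± 85.5 CPM in ntCZC (SD, n = 10) and 49.8 ± 14.4 CPM in tissue (SD, n = 9; adjusted p = 0.000523). Within nonclassical monocytes Grk3 was 376 ± 69.0 and 351 ± 55.2 CPM (SD, n = 7 each; adjusted p = 0.480) and in classical monocytes it did not pass either (adjusted p = 0.306). Rgs2 and Rgs18, which shorten G-protein signals, were 534 ± 297 and 31.3 ± 16.5 CPM in ntCZC (SD, n = 10) and 203 ± 44.8 and 8.12 ± 2.72 CPM in tissue (SD, n = 9; adjusted p = 8.57e-05 and 1.28e-06). In nonclassical monocytes 7 of 18 were higher and 1 lower, with Coro1a, an actin regulator, at 2265 ± 280 and 929 ± 188 CPM (SD, n = 7 each; adjusted p = 2.89e-06), and in classical monocytes 5 of 18 were higher and 0 lower. Of all genes tested, 15.0% were higher in nonclassical and 9.89% in classical monocytes of ntCZC.

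The ligands in tissue were held by other cells than their receptors in part. Cxcl12, the ligand of Cxcr4, was at 474 CPM in stromal and 155 CPM in endothelial barcodes and at 15.9 CPM in leukocytes pooled. Cxcl2, a ligand of Cxcr2, was highest in neutrophils themselves at 11547 CPM, and Cxcl1 in stroma at 1233 CPM. Ccl2, the ligand of Ccr2, was at 900 CPM in stroma and 645 CPM in C1q macrophages. Cxcl16, which binds Cxcr6, was at 818 CPM in mature and 399 CPM in type 2 dendritic cells, and Cxcl9, which binds Cxcr3, at 137 CPM in type 1 dendritic cells. Ccl5, which binds Ccr1, was at 10937 CPM in NK cells and 2972 CPM in T cells. Ccl21a (138 CPM) and Cx3cl1 (38.9 CPM) were highest in endothelium, and Ccl25, the ligand of Ccr9, did not exceed 16.3 CPM in any class.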

How the data were processed

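Single-cell RNA was captured from 22 mouse libraries. The deposited matrices hold UMI counts per gene and barcode, made by the authors with Cell Ranger on mm10 (version 2.1.1 in the submitters' notes, which also name Seurat), with no normalization. The matrix headers name another version of Cell Ranger. Tissue null replicate 3 took its genotype from the strain entry, as its title names none. Counts were summed per library and class. Tests of ntCZC against tissue pooled the genotypes with no term for them, although their mix differed between these kinds of library. Tests used edgeR 4.0.16 (quasi-likelihood, TMM scaling, low-count filter, sex as covariate) in R 4.3.3 with Benjamini-Hochberg adjustment over all genes tested at 0.05, and DESeq2 1.42.0 as an alternative. Neighboring classes and percentages of barcodes were compared by exact permutation over libraries (scipy 1.17.1). Classes needed 20 barcodes per library for a library value, or 10 or 5 where stated, limits set after the data had been seen. No doublet caller was run, and barcodes meeting several gates without a lead of 2 markers were left out. The gate rule was chosen after marker counts had been seen. Receptors and gene lists were chosen with earlier results of these data known. The named genes were the 9 receptors, fixed lists of other receptors, ligands and signaling genes, and the 3 genes most like each receptor. The edgeR tests were tested on simulated data, where 76.0% of 2-fold changes between ntCZC and tissue over all leukocytes were recovered among 9619 genes. In classical monocytes 42% were recovered and in nonclassical monocytes 78.0%. Of the calls, 6.08% and 7.88% were false in these classes, against 3.57% over all leukocytes. The simulations changed far fewer genes than the data called, and the fits of B cells, T cells and C1q macrophages were not simulated. No library was a duplicate of another within sampling noise, the chi-square of 25 replicate pairs being at least 3.04 per degree of freedom, which does not show that they were independent animals. A result on a further receptor, beyond those named, is not reported here.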

Additional observations from a re-analysis of the deposited data

Results flagged for a closer look

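In 5 of 29 groups of 4 to 10 libraries, 1 library stood far from the others by Dixon's criterion, which chance meets in about 1 in 20 groups. Over all leukocytes, ntCZC wt replicate 3, with 7 barcodes, was highest in Ccr1 (215 CPM, next 108), Ccr7 (429.5 CPM, next 98.4) and Cxcr2 (483 CPM, next 209). Ccr9 in ntCZC null replicate 3 was 22.5 CPM from 5 UMIs, and the next library was at 0.546 CPM. Ccr1 in tissue wt replicate 5 was 220 CPM, and the next tissue library was at 134 CPM.

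The 2 tissue libraries with conflicting genotype labels held some receptors above the highest and some below the lowest tissue wt library. The one titled het but with a null strain entry had Ccr2 at 246 CPM (highest wt 139), Cxcr2 at 33.4 CPM (28.5), Cxcr3 at 20.1 CPM (11.1) and Cxcr6 at 42.4 CPM (34.5). Its Ccr7 was low, at 44.9 CPM (lowest wt 58.9). The one titled null but with a wt strain entry had Cxcr4 at 287 CPM (highest wt 274). Its Ccr2 at 62.7 CPM (lowest wt 77.7) and Cxcr6 at 14.4 CPM (19.2) were low. Their genotype is unknown here and no test was made.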

How the results depend on the processing

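The lower Cxcr4 in ntCZC monocytes, T cells and C1q macrophages kept its call when each library was left out. Over all leukocytes, 2 receptors were called, and 4 under RLE scaling (Cx3cr1 higher, Ccr1, Ccr7 and Cxcr4 lower), with all deposited barcodes (Ccr2 and Cx3cr1 higher, Ccr7 and Cxcr4 lower) and with at least 2 Ptprc UMIs (Ccr2 and Cx3cr1 higher, Ccr1 and Ccr7 lower; 1 to 3 leaving out each library). RLE moved the median log2 difference of all genes from -0.06 to -0.20 and the genes called higher from 2316 of 5299 to 1767 of 5442. Of all genes tested 53.8% were called, 55.3% under RLE, 56.4% with all deposited barcodes, 50.6% with at least 2 Ptprc UMIs and 50.2% to 56.3% leaving out each library. Within the 2 monocyte classes there were 3 receptor-by-class calls on 2 receptors (29.9% of all gene tests called), 9 calls on 5 receptors with no filter on low counts (20.1%), 11 on 7 over 5 classes with at least 10 barcodes (32.4%), and 3 to 5 leaving out each library (21.4% to 30.0%). The 11 calls became 8 to 12 leaving out each library (28.2% to 32.2%). They became 9 on 5 receptors without barcodes with non-leukocyte markers (30.0%), and 10 on 6 without the 10% of barcodes with the most UMIs (28.7%). Among ntCZC genotypes, 1 receptor call was made (0.0534% of all gene tests), 4 with no filter (0.696%), 2 with DESeq2 (1.18%) and 1 to 2 leaving out each library (0.02% to 0.756%). Within tissue classes genotype called 0 receptors (edgeR; 0 with DESeq2), and 2 with no filter (0.64%). Of neighboring classes 0 pairs passed, and 9 with at least 50 barcodes. By percentage of barcodes 1 receptor was called, 0 at 500 UMIs, 0 without thinning, 3 with at least 2 Ptprc UMIs, 2 with all deposited barcodes and 1 to 2 leaving out each library.

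Directions turned only for receptors that had not passed. Cxcr6 over all leukocytes was -0.10 with all deposited barcodes, -0.33 without barcodes with non-leukocyte markers and -0.027 to 0.45 leaving out each library, and Cxcr2 was -1.54 to 1.01. Differences in percentage points turned for Cxcr3 (-0.054 at 500 UMIs, -0.045 with at least 2 Ptprc UMIs, -0.196 to 0.240 leaving out each library), Cxcr4 (8.01 without thinning), Cxcr6 (0.154 without thinning, 0.291 with at least 2 Ptprc UMIs, -0.926 to 0.308) and Ccr2 (-1.33 to 1.38). Ccr2 in C1q macrophages was -0.41 to 0.13 leaving out each library. The cause was not tested.

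Replicate numbers were not taken to pair the libraries, as not every correlation of same-numbered deviations passed 0.1, with -0.045 to 0.129 over 6 pairs of ntCZC and tissue, -0.112 to 0.132 over 8 pairs of ntCZC genotypes and 0.0239 to 0.161 over 5 pairs of tissue genotypes. With the number as a replicate block, 4 receptors (Ccr2 and Cx3cr1 higher, Ccr7 and Cxcr4 lower) were called over all leukocytes (37.1% of all genes) and 2 among ntCZC genotypes (0.183%). Within classes with at least 10 barcodes, the block gave 11 calls on 6 receptors (14.9% of all gene tests), against 11 on 7 without it (32.4%). Under the block, Ccr7 in B cells was -0.043 and Ccr2 in C1q macrophages 0.83. Ccr9 in ntCZC rests on 7 UMIs in 1902 barcodes.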
